A study of Homo sapiens with 22 samples.

Results

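The 10 genes described here encode subunits of condensin and cohesin. Of the 59087 gene names in the count tables, all 10 were found by their symbols in both tables. SMC2, SMC4, NCAPD2, NCAPG, NCAPH and NCAPD3 belong to condensin, and SMC1A, SMC3, RAD21 and STAG2 to cohesin. They were measured by RNA-Seq in HUDEP-2 cells, human erythroid progenitors immortalized in culture, which mature after a change of medium. Subclones, as the replicates of the sample titles were taken to be, numbered 2 for WT and 3 for H2A.X KO in the H2A.X experiment. In the BAZ1B experiment they numbered 3 for WT and 3 for BAZ1B KO. Each was sampled at D0, in expansion medium, and at D6 of differentiation. The KO subclones came from CRISPR/Cas9 cutting with a pair of guides around the deleted stretch, and each was grown from 1 cell and selected for a deletion on both alleles, so a genotype is represented by 2 or 3 clones of 1 line. No agent other than the differentiation medium differed between the groups.

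Condensin and cohesin are rings built on a dimer of SMC ATPases, closed by a kleisin subunit and completed by HEAT-repeat subunits. Both extrude DNA loops. Condensin compacts chromosomes for division, whereas cohesin holds sister chromatids together after replication and shapes interphase chromatin together with CTCF. In maturing erythroblasts the nucleus shrinks and its chromatin condenses before the nucleus is expelled, while the cells pass through their last divisions.

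SMC2 and SMC4 form the ATPase dimer of condensin. NCAPD2, NCAPG and the kleisin NCAPH complete condensin I, and NCAPD3 is a HEAT-repeat subunit of condensin II. Promoter windows of 300 bases, 250 before and 50 after the RefSeq start on GRCh38.p14, were given for 9 of the 10 genes, in 15 windows, since several genes have more than 1 start. RAD21 had no entry. Windows of the 5 condensin genes with a CHR match are shown in the direction of transcription, with matches in capitals. The RNA of these genes was higher at D6 than at D0 in the BAZ1B experiment. So was that of NCAPH, SMC1A and STAG2, whose windows had no CHR match, and of SMC3, whose window had 1. CHR is the cell-cycle genes homology region, and the windows were chosen with the matches known. The searched motifs were CHR (TTTGAA), the CCAAT box (CCAAT) and an E2F-like motif (TTGGCGC or TTCCCGC), each on both strands and read as exact letters. They lie at chr4:17810729-17811028 on the plus strand for NCAPG, chr12:6493852-6494151 on the plus strand for NCAPD2, chr9:104094059-104094358 on the plus strand for SMC2, chr3:160399400-160399699 on the plus strand for SMC4 and chr11:134223918-134224217 on the minus strand for NCAPD3.
NCAPG: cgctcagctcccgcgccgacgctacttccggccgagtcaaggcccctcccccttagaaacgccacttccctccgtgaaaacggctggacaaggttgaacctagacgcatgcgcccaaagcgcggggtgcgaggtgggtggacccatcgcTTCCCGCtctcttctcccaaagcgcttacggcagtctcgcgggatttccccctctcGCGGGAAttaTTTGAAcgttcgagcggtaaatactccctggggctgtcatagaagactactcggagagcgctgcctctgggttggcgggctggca
NCAPD2: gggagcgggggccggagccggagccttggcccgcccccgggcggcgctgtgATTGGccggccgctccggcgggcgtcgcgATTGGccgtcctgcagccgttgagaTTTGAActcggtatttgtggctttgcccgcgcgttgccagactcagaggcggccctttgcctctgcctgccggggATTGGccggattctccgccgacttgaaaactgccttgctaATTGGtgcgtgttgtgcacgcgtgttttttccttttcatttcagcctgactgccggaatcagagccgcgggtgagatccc
SMC2: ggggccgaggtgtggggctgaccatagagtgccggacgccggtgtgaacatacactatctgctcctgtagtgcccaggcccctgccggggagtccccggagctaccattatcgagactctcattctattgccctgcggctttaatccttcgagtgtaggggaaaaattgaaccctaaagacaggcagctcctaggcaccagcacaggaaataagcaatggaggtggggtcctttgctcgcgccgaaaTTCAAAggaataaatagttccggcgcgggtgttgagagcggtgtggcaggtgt
SMC4: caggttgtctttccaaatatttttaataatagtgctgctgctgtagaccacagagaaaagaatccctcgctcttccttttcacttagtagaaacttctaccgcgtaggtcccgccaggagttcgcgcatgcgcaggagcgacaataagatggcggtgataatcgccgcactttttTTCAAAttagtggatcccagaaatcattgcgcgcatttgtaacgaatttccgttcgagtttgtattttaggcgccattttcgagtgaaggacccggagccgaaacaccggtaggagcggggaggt
NCAPD3: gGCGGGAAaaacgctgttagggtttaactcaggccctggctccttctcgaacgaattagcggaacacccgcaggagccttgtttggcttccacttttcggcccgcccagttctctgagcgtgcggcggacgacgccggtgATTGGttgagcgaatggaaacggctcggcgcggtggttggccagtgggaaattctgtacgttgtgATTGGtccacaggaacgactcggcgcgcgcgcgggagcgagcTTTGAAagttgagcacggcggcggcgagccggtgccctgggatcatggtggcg
The NCAPG window held 2 E2F-like matches and 1 CHR match, and the NCAPD2 window held 1 CHR match and 4 CCAAT boxes. Those of SMC2 and SMC4 held 1 CHR match each, and that of NCAPD3 held 1 CHR match, 2 CCAAT boxes and 1 E2F-like match. Across the 15 windows, CHR was found in 6 (40%), against 15.2% of the 35116 windows of all genes. An E2F-like match was found in 4 (26.7%), against 9.23%. A CCAAT box was found in 5 (33.3%), against 34.6%. The windows of 1 gene can overlap, and a match of letters is not a measured binding site.

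Library totals ran from 11910141 to 21013004 counts in the H2A.X experiment and from 33199408 to 41273244 in the BAZ1B experiment. The biological coefficient of variation, the spread between subclones beyond counting, was 0.239 in the former and 0.0865 in the latter. The targeted genes went with the labels. H2AFX, the gene of H2A.X, stood at 1575 and 1969 normalized counts in WT at D0 and at 333, 787 and 759.9 in H2A.X KO. BAZ1B stood at 9913, 9823 and 9703 in WT at D0 and at 6556, 8349 and 7349 in BAZ1B KO, a smaller gap without overlap. Normalized counts, scaled within each experiment to the average of its effective library sizes, are not comparable between experiments. All 12 erythroid markers were detected in every group except HBG1, which was at 0 in every BAZ1B KO library at D0. The column names of 5 of the 6 H2A.X KO libraries were marked as redone. KO replicate 3 at D6 and the 4 WT libraries were not, so this mark and the genotype cannot be told apart, with only 1 KO library unmarked. In bulk RNA, more cells of a type and more RNA per cell cannot be told apart.

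In CPM (counts scaled to the effective library) per kilobase of transcript, RAD21, the kleisin of cohesin, had the highest level of the 10 genes in each of the 8 groups, from 148 ± 6.81 (SD, n = 2) in H2A.X-experiment WT at D6 to 256 ± 50.4 (n = 3) in H2A.X KO at D6. It did not overlap with the next gene in any group. In BAZ1B-experiment WT at D0 it was followed by NCAPD2 at 75.5 ± 2.82, SMC4 at 67.5 ± 1.09 and NCAPG at 36.8 ± 0.536 (n = 3). SMC1A, SMC2 and SMC3 came next at 30.9, 30.1 and 29.7, and neighbours among these 3 overlapped. NCAPD3 at 27.0 ± 0.294, STAG2 at 24.5 and NCAPH at 16.2 ± 0.153 closed the order without overlap. NCAPH was the lowest in all 4 groups of the BAZ1B experiment, and NCAPH or NCAPD3 in the H2A.X experiment. In that experiment WT libraries at D0 placed NCAPG at 45.6 ± 2.92 (n = 2), next to SMC4 at 48.6 ± 10.2, and these overlapped.

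The change with maturation was measured most precisely in the BAZ1B experiment, where D6 was compared with D0 within each genotype. By edgeR's quasi-likelihood test, with a Benjamini-Hochberg adjusted p below 0.05 over all tested genes, 9 of the 10 genes rose in WT and 9 of 10 in KO, all except RAD21 in both, and none fell. Over all 13879 tested genes 33.5% were higher and 35.4% lower in WT, and 33.2% and 34.5% in KO. The median log2 change of the 10 genes was 0.44 in WT and 0.45 in KO. All 3 WT and all 3 KO subclones were higher at D6 than at D0 for each of the 9 genes. In both genotypes every D6 library of these 9 lay above every D0 library, as it did for 38.1% of all tested genes in WT and 33.3% in KO. These p-values measure the spread between replicates taken to be subclones of 1 line.

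In this experiment SMC2 stood at 6825, 6613 and 6642 normalized counts in WT at D0 and at 12250.5, 12180.0 and 12574 at D6. The KO libraries held 6236, 7335 and 7033 at D0 and 10336, 11777 and 12361 at D6. Each D6 library lay above each D0 library. The log2 change was 0.88 ± 0.07 (SE, adjusted p = 8.5e-08) in WT and 0.74 ± 0.07 (adjusted p = 4.64e-07) in KO. Its partner SMC4 was more abundant and changed less, from 13068, 12734 and 13122 in WT at D0 to 17044, 17398 and 17814 at D6. In KO it went from 12112, 14519 and 14106 to 16316, 16992 and 17968. The groups of D0 and D6 did not overlap in either genotype, and the log2 change was 0.42 ± 0.06 (adjusted p = 3.12e-05) in WT and 0.33 ± 0.06 (adjusted p = 0.00027) in KO.

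Among NCAPD2, NCAPG and NCAPH, the condensin I subunits outside the SMC dimer, NCAPG had the largest log2 change in this experiment, close to that of NCAPH in KO. It had 6395, 6233 and 6391 normalized counts in WT at D0 and 10723, 10879 and 10825 at D6. In KO it had 6361, 6556 and 6616 at D0 and 9807, 10117 and 10416 at D6. The D6 libraries of KO all lay below those of WT, whereas the D0 libraries overlapped. Its log2 change was 0.77 ± 0.03 (adjusted p = 7.58e-10) in WT and 0.64 ± 0.03 (adjusted p = 3.84e-09) in KO. NCAPH rose by 0.64 ± 0.05 on the log2 scale in WT, from a mean of 3677 ± 34.6 (SD, n = 3) to 5714 ± 165, and by 0.62 ± 0.05 in KO. NCAPD2, a HEAT-repeat subunit, rose by 0.43 ± 0.05, from 13692 ± 511 to 18442 ± 385, and by 0.35 ± 0.05 in KO. For NCAPD3 of condensin II, the log2 change was 0.16 ± 0.03 (adjusted p = 0.000846) in WT and 0.13 ± 0.03 (adjusted p = 0.00268) in KO, the smallest among the 9 genes that rose.

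Within cohesin, STAG2, the HEAT-repeat subunit that binds the kleisin, changed most in the BAZ1B experiment. Its WT libraries held 5683, 5683 and 5682 normalized counts at D0 and 9969, 9827 and 10301 at D6, while its KO libraries held 5341, 5875 and 5682 and then 8938, 8852 and 9560.5. The log2 change was 0.82 ± 0.04 (adjusted p = 2.8e-09) in WT and 0.69 ± 0.04 (adjusted p = 1.41e-08) in KO. The ATPases SMC1A and SMC3 rose by 0.45 ± 0.04 and 0.39 ± 0.04 on the log2 scale in WT and by 0.50 ± 0.04 and 0.39 ± 0.04 in KO. RAD21 stood apart. It had 27208, 26113 and 26302 in WT at D0 and 27221, 26947 and 28140.5 at D6, and 23758, 31433 and 29486 in KO at D0 and 26015, 26409 and 28045 at D6. D0 and D6 overlapped in both genotypes, with a log2 change of 0.05 (95% interval -0.12 to 0.22, adjusted p = 0.598) in WT and -0.07 (-0.24 to 0.09, adjusted p = 0.417) in KO. The low D0 library, KO replicate 1, decided the latter call: without it RAD21 was lower at D6 in KO by -0.18 on the log2 scale (adjusted p = 0.00278), and the count in KO became 10, with 9 higher and 1 lower.

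**Figure D1:**
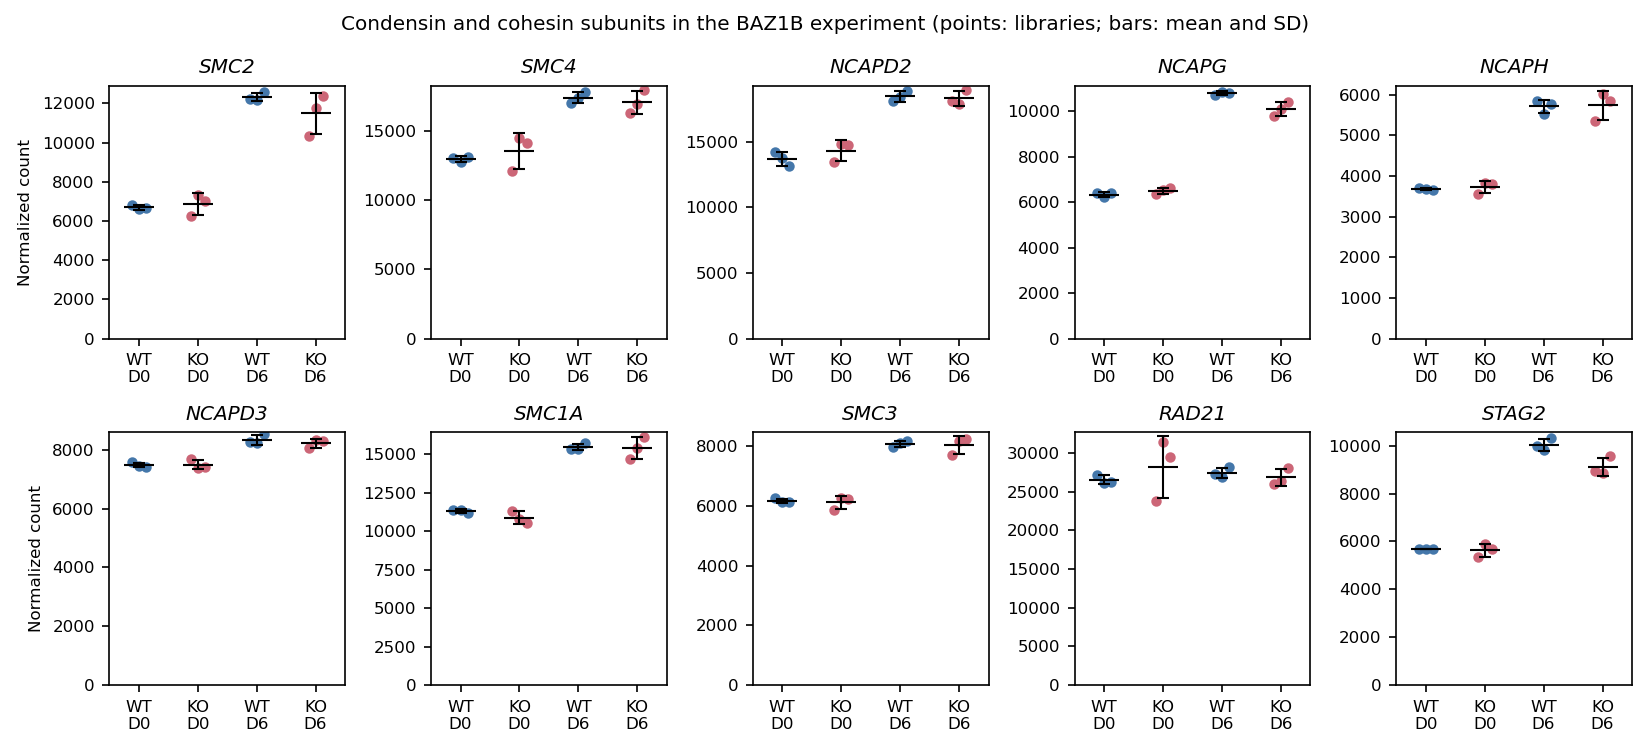
Normalized counts of the 10 genes in the BAZ1B experiment, 1 panel per gene, by genotype and day. Points are libraries, horizontal bars are group means and whiskers are SDs over 3 subclones; D6 lies above D0 in both genotypes for 9 genes, and RAD21 overlaps.

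The difference between the genotypes in this change was tested as an interaction in edgeR, and 0 of the 10 genes passed, with 1 gene at an unadjusted p under 0.05 and 0 by DESeq2. The background of adjusted calls in edgeR was 1.58% higher and 0.893% lower, and 2284 of all 13879 tested genes had an unadjusted p under 0.05. The 1 of the 10 genes under 0.05 was NCAPG, named after its values were seen, with a difference of -0.13 (95% interval -0.24 to -0.03, adjusted p = 0.178). For STAG2 it was -0.13 (-0.26 to 0.01) and for SMC2 -0.14 (-0.34 to 0.06). Without KO replicate 1 at D0, RAD21 passed at -0.23 (adjusted p = 0.0448).

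Genes of dividing cells moved in the same comparison. Of 8 S phase genes, 6 rose in WT and 8 in KO, and of 10 genes of G2 and M, 9 rose in WT and 6 in KO. The summed level of the S phase list ran from 2368 to 2414 CPM in WT at D0 and from 3138 to 3248 at D6. The list of G2 and M ran from 2699 to 2727 and from 3613 to 3713. The list of mast cell and eosinophil genes ran from 467 to 508 in WT at D0 and from 30.0 to 40.8 at D6, with CLC at 0 in both. The part of these lists in the change of the 10 genes was not tested.

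In the H2A.X experiment, D6 against D0 gave 0 of the 10 genes in WT, with 0 at an unadjusted p under 0.05 in edgeR and 0 by DESeq2. The background of adjusted calls in edgeR was 0.839% higher and 1.16% lower, over 13236 tested genes, and 2796 of these had an unadjusted p under 0.05. The log2 changes of the 10 genes in WT ran from -0.17 for NCAPD3 to 0.36 for NCAPG, and the interval of NCAPG was -0.04 to 0.76. With 2 libraries per WT group the intervals were wide, as for SMC2 at 0.07 (-0.61 to 0.75) and STAG2 at 0.11 (-0.54 to 0.76). In the same comparison 0 of 12 erythroid, 0 of 8 S phase and 0 of 10 genes of G2 and M were called. Log2 changes were positive for 11, 2 and 10 of these. The summed erythroid list ran from 23449 to 31938 CPM at D0 and from 36770 to 62209 CPM at D6. In BAZ1B-experiment WT it ran from 6295 to 7040 CPM and from 38070 to 43754.5 CPM. Their part was not tested. In KO, 4 of the 10 genes rose and 0 fell, against 14.8% higher and 16.1% lower over all tested genes.

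SMC2 in H2A.X KO stood at 3308, 3409 and 3403 normalized counts at D0 and at 7206, 9309 and 4176 at D6. STAG2 stood at 3265, 3409 and 3211 at D0 and at 7385, 7465 and 3794 at D6. NCAPG stood at 3439, 3418 and 3501 and then at 5614, 7032 and 4924, and SMC3 at 3236, 3021 and 3105 and then at 5139, 4932 and 3896. In all 4 genes, which were the ones called, KO replicate 3 at D6 was the lowest of the D6 libraries. That library was also the only KO library not marked as redone, so the mark and the change of this subclone cannot be told apart. The log2 change was 1.03 ± 0.25 (adjusted p = 0.0119) for SMC2, 0.92 ± 0.24 (adjusted p = 0.016) for STAG2, 0.76 ± 0.15 (adjusted p = 0.00376) for NCAPG and 0.58 ± 0.15 (adjusted p = 0.0168) for SMC3. The replicate numbers paired D0 and D6 samples of KO, and with the subclone as a block 6 genes rose, since SMC4 (0.47, adjusted p = 0.0353) and NCAPH (0.35, adjusted p = 0.0467) joined. Without KO replicate 3 at D6, 8 genes rose, and without both libraries of KO subclone 1 only NCAPG passed. Leaving out KO replicate 3 at D0 or KO replicate 2 at D6 gave 2. In the same comparison 5 of 8 S phase genes, 1 of 10 genes of G2 and M and 11 of 12 erythroid genes rose, and all 5 tested mast cell and eosinophil genes fell. The summed S phase list ran from 2233 to 2404 CPM at D0 and from 3184 to 3434 CPM at D6, and the erythroid list from 11938 to 15930.4 CPM and from 42705 to 71536 CPM. Their part was not tested.

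RAD21 was lower at D6 in both WT subclones, with log2 changes of -0.14 and -0.12, and higher in all 3 KO subclones, with changes from 0.065 to 0.60. The difference of these changes was 0.45 ± 0.24 (95% interval -0.08 to 0.99, adjusted p = 0.412). With an offset for transcript length and GC content, described below, the change of RAD21 in WT was 0.033. As an interaction, 0 of the 10 genes passed in edgeR, against 0.302% higher and 1.04% lower in all genes, and 0 passed by DESeq2. With an unadjusted p under 0.05 there were 2 (SMC2 and SMC3), against 2016 of all 13236 tested genes. All 10 differences were positive, from 0.16 for NCAPD2 to 0.96 for SMC2. Without KO replicate 3 at D6, the only KO library not marked as redone, SMC2 (1.26, adjusted p = 0.0242) and STAG2 (1.10, adjusted p = 0.0232) passed.

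**Figure D2:**
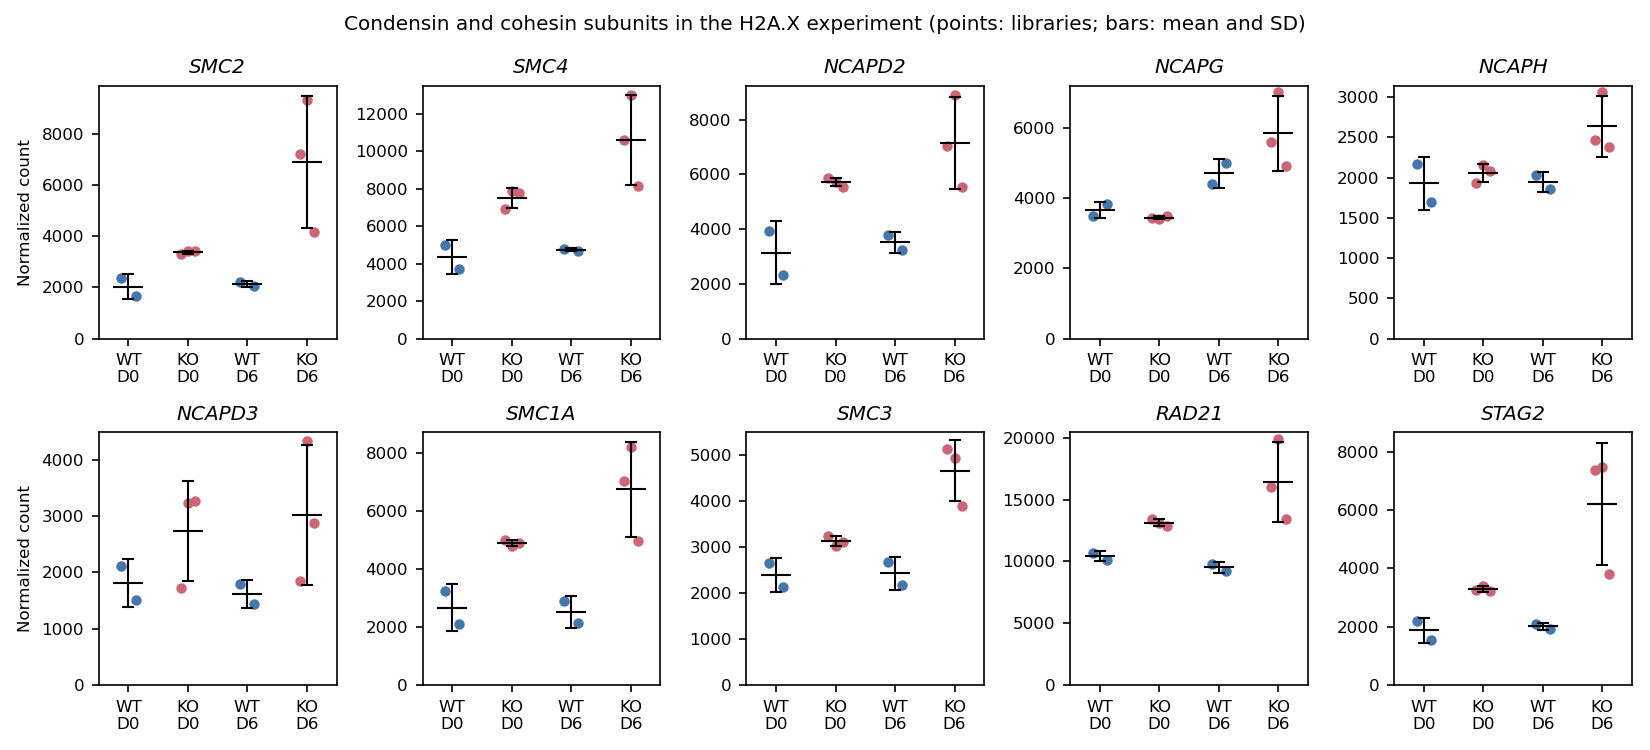
Normalized counts of the 10 genes in the H2A.X experiment, 1 panel per gene, by genotype and day. Points are libraries (2 WT and 3 KO at each day), horizontal bars are group means and whiskers are SDs; KO libraries at D6 are spread most widely, and both low NCAPD3 values of KO belong to replicate 1.

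Whether the loss of BAZ1B, a subunit of chromatin remodelers and a kinase of H2A.X, changed the 10 genes was asked at each day. At D0, 0 of the 10 passed in edgeR, against 1.25% higher and 2.64% lower in all genes, and 0 passed by DESeq2. With an unadjusted p under 0.05 there were 0, against 2131 of all 13879 tested genes. All 10 genes overlapped between KO and WT, whereas 9.76% of all genes had every KO library above and 12.7% below every WT library. The log2 differences ran from -0.05 for SMC1A to 0.09 for RAD21, and the 95% intervals of the 10 genes lay between -0.14 and 0.26. At D6, 0 of the 10 passed in edgeR, against 6.87% higher and 5.97% lower in all genes. With an unadjusted p under 0.05 there were 2, against 3640 of all 13879 tested genes. By DESeq2 1 passed, against 4.35% higher and 3.36% lower of all genes with a count. For STAG2 and NCAPG every KO library lay below every WT library, as for 15.2% of all genes, and for none of the 10 above, against 15.7%. The difference was -0.14 ± 0.04 (adjusted p = 0.0513) for STAG2 and -0.10 ± 0.03 (adjusted p = 0.0841) for NCAPG. STAG2 passed by DESeq2 (-0.13, adjusted p = 0.0321), without KO replicate 3 at D6 (-0.18, adjusted p = 0.0215) and without KO replicate 1 or 2 at D0. The other 8 genes overlapped at D6, with intervals between -0.24 and 0.14. Without KO replicate 1 at D0, RAD21 was higher in KO at D0 by 0.20 on the log2 scale (adjusted p = 0.0146).

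The loss of H2A.X, the histone variant that is phosphorylated at DNA breaks, was the other genotype compared. At D0, 4 of the 10 genes were higher in KO and 0 lower, against 18.4% higher and 16.7% lower of the 13236 tested genes. At D6, 7 were higher and 0 lower, against 22.2% and 20.9%. The median log2 difference of the 10 genes was 0.66 at D0 and 0.98 at D6, while that of all tested genes was 0.013 and -0.0062. Every KO library lay above every WT library for 7 genes at D0, against 36.1% of all tested genes, and for 9 at D6, against 31%. Every KO library lay below for 1 at D0, against 34.1%, and for 0 at D6, against 32.3%.

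In condensin, SMC4 stood at 5011 and 3719.9 normalized counts in WT at D0 and at 6886, 7880.5 and 7751 in KO. At D6 it stood at 4796 and 4674 in WT and at 10589, 12987 and 8158 in KO. KO lay above WT at both days, by 0.78 ± 0.21 on the log2 scale at D0 (adjusted p = 0.0184) and 1.16 ± 0.21 at D6 (adjusted p = 0.0043). SMC2, with 2381 and 1675 in WT at D0 and 2225 and 2040.0 at D6, differed by 0.73 ± 0.29 (adjusted p = 0.069) and 1.69 ± 0.30 (adjusted p = 0.00404), and only the latter passed. NCAPD2 had 3943 and 2334 in WT at D0 and 5861, 5722 and 5550.1 in KO, and 3786 and 3249.7 in WT at D6 and 7036, 8880.4 and 5535 in KO. It was higher in KO by 0.86 ± 0.25 (adjusted p = 0.0232) at D0 and 1.02 ± 0.25 (adjusted p = 0.00951) at D6. NCAPG was the gene whose KO libraries all lay below WT at D0, by -0.09 (95% interval -0.45 to 0.27), and it overlapped at D6 with a difference of 0.31 (-0.05 to 0.68). NCAPH differed by 0.09 (-0.27 to 0.45) at D0 and 0.44 (0.07 to 0.80, adjusted p = 0.0524) at D6.

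All 4 cohesin genes were higher in KO at D6. SMC1A stood at 3233 and 2088 normalized counts in WT at D0 and at 5005, 4802 and 4909 in KO, and at 2909 and 2128 in WT at D6 and 7031, 8215 and 4979 in KO. The log2 difference was 0.88 ± 0.25 (adjusted p = 0.0228) at D0 and 1.42 ± 0.26 (adjusted p = 0.0042) at D6. STAG2, with 2181 and 1559 in WT at D0 and 2097 and 1936 at D6, differed by 0.82 ± 0.27 (adjusted p = 0.0406) and 1.62 ± 0.28 (adjusted p = 0.00401). SMC3, with 2659 and 2125 in WT at D0 and 2678 and 2172 at D6, differed by 0.38 ± 0.17 (adjusted p = 0.104) and 0.94 ± 0.17 (adjusted p = 0.00448). RAD21 had 10689.5 and 10125 in WT at D0 and 13436, 13094 and 12865 in KO, and 9832 and 9212 in WT at D6 and 16036, 19894 and 13454 in KO. It differed by 0.34 ± 0.17 (adjusted p = 0.147) at D0 and 0.79 ± 0.17 (adjusted p = 0.00679) at D6, so KO and WT were apart at both days and the test passed at D6.

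These counts rested on few libraries. At D0 the number of genes higher in KO was 0 without WT replicate 2, KO replicate 2 or KO replicate 3 at that day and 1 without KO replicate 1, and at D6 it was 0 without WT replicate 2, the library with the fewest counts, and 7 to 9 without any other library. They also moved with transcript length. Over 12017 tested genes with a matched transcript, the log2 difference between H2A.X KO and WT had a Spearman correlation with length of 0.54 at D0 and 0.60 at D6, given across genes, which share the libraries. Genes of 5 kb or longer had a median difference of 0.69 and 0.79, respectively. The canonical transcripts of the 10 genes had a median length of 5725 nt, from 3660 for RAD21 to 9710 for SMC1A, and a GC content of 39.5%, whereas tested genes with a mean count of at least 100 had medians of 3313 nt and 47.5%. In the BAZ1B experiment the correlation was -0.030 at D0 and 0.052 at D6.

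**Figure D3:**
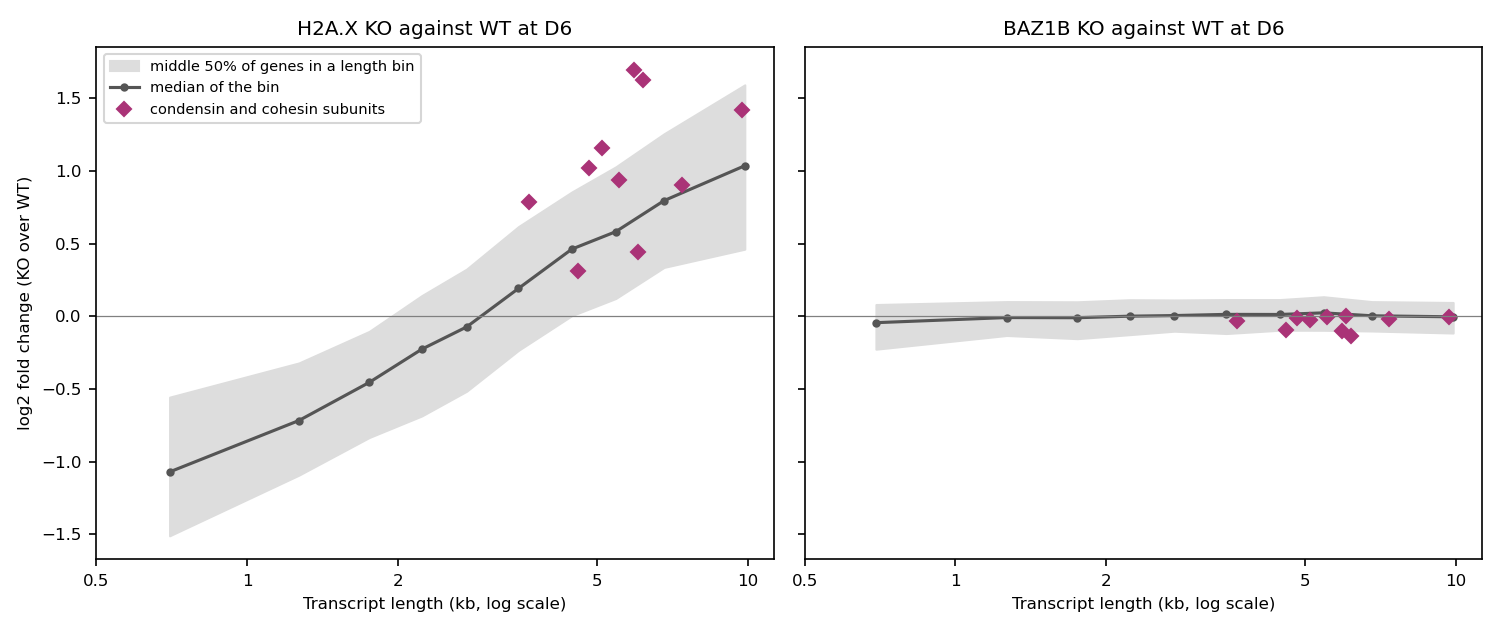
Log2 difference of KO over WT at D6 (vertical axis) against transcript length in kb (horizontal axis, log scale), for H2A.X on the left and BAZ1B on the right. The line is the median and the band the middle 50% of genes in each length bin. In H2A.X KO the line climbs with length. Of the 10 genes, shown as diamonds, NCAPG and NCAPH lie below it and the others above. In BAZ1B KO the line stays near 0.

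With an offset per library for length and GC content, 0 of the 10 genes were higher in H2A.X KO at D0 and 2 were lower, NCAPG (-0.56, adjusted p = 0.0281) and NCAPH (-0.56, adjusted p = 0.0202). The median of the 10 genes was then -0.015, and over all genes 7.98% were higher and 13.9% lower. At D6, 3 remained higher, SMC2 (0.82, adjusted p = 0.0267), STAG2 (0.71, adjusted p = 0.0261) and SMC1A (0.50, adjusted p = 0.0416), and 0 were lower, with a median of 0.39, against 9.01% higher and 11.7% lower over all genes. With the offset, D6 against D0 in H2A.X KO gave 7 genes that rose in place of 4, with SMC1A, SMC4 and NCAPH added, while the share of all genes went from 14.8% to 21.4% higher and from 16.1% to 15.9% lower. In the BAZ1B experiment it left the counts at 9 genes in WT and 9 in KO, with medians of 0.66 and 0.58, and over all genes 39.7% were then higher and 30.8% lower in WT, and 39.5% and 29.8% in KO. RNA quality of the libraries was not measured here, and its part was not tested.

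**Figure D4:**
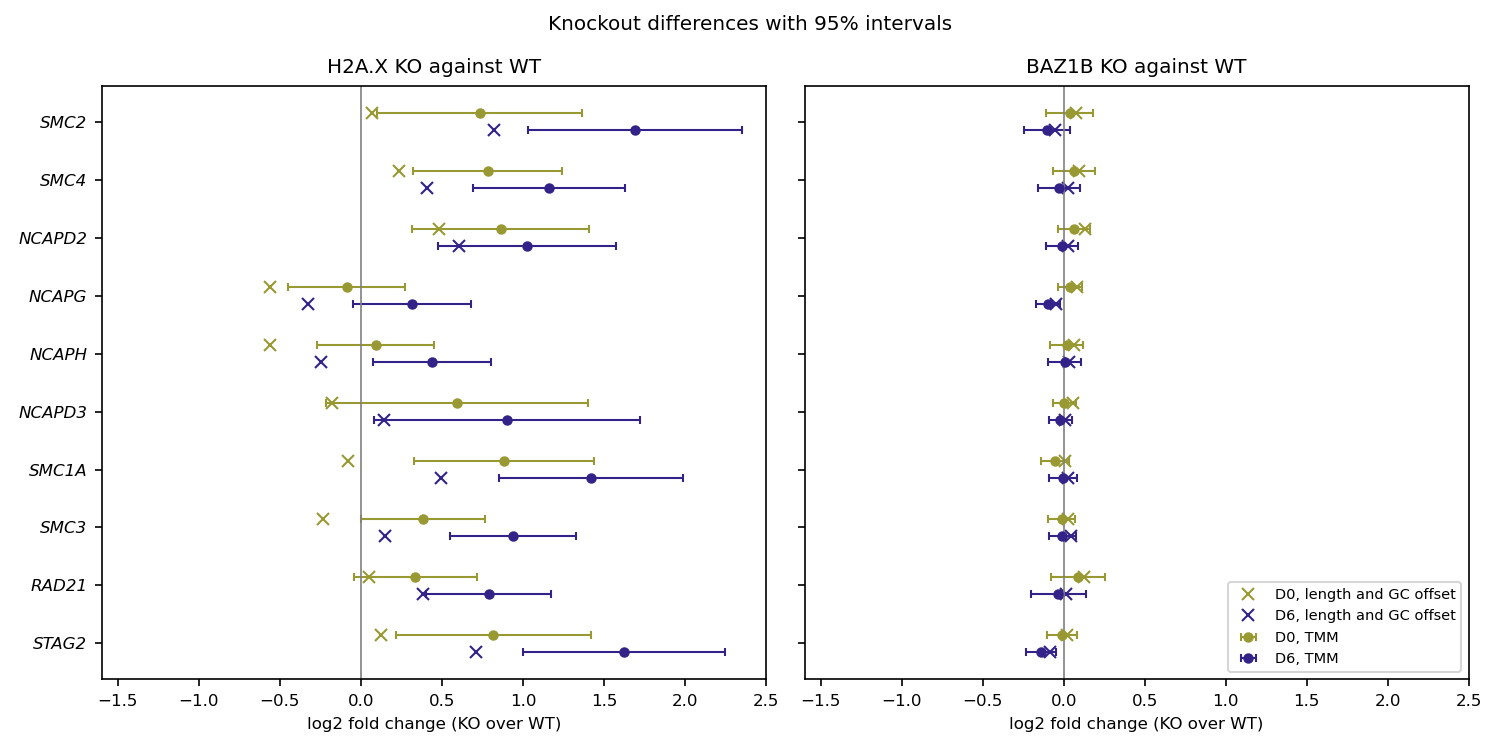
Log2 difference of KO over WT for the 10 genes, H2A.X on the left and BAZ1B on the right, at D0 and D6. Circles with bars are the estimates and 95% intervals of the TMM-normalized fit and crosses are the estimates with the offset for length and GC content; in H2A.X KO each cross lies left of its circle, and in BAZ1B KO both lie near 0.

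Without the offset for length and GC content, other marker lists differed with the H2A.X genotype as well. In that fit, transcripts of up to 1 kb had a median log2 difference of -0.78 at D0 and -1.07 at D6. Those longer than 8 kb had 1.03 and 1.04. Of 8 S phase genes, 4 were lower and 0 higher in KO at D0, and 3 were higher and 0 lower at D6. Of 10 genes of G2 and M, 4 were higher and 1 lower at D0, and 6 were higher and 2 lower at D6. At D0 the sum of the G2 and M list was 1529 to 1814 CPM in WT libraries, against 2644 to 2682 CPM for KO. At D6 it was 2084 to 2275 CPM in WT, against 2566 to 4872 CPM for KO. The erythroid list at D0 was 23449 to 31938 CPM in WT, against 11938 to 15930.4 CPM for KO, and overlapped at D6. The list of mast cell and eosinophil genes at D0 was 104 to 139.8 CPM in WT, against 209 to 419 CPM for KO, and lay the other way at D6, with 145 to 232 CPM in WT and 3.08 to 13.5 CPM for KO. The part of these lists in the differences of the 10 genes was not tested, nor was the part of transcript length in those of the lists.

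NCAPD3 behaved differently among the H2A.X KO subclones. It stood at 1719 normalized counts in KO replicate 1, 3241 in replicate 2 and 3266 in replicate 3 at D0, and at 1857, 4339 and 2872 at D6, while WT held 2118 and 1516 at D0 and 1790.0 and 1446 at D6. Replicate 1 was the lowest KO library at both days and overlapped with WT at D0. The difference of KO and WT was 0.59 ± 0.36 (adjusted p = 0.221) at D0 and 0.90 ± 0.37 (adjusted p = 0.0714) at D6. Without both libraries of subclone 1, it was 0.84 (adjusted p = 0.0465) at D0 and 1.15 (adjusted p = 0.0189) at D6, and the number of genes higher in KO became 2 at D0 and 8 at D6.

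NCAPD3 lies on chromosome 11 of GRCh38, from 134150113 to 134225504 on the minus strand, 15.1 Mb beyond H2AFX, which spans 119093874 to 119095465, toward the end of the long arm. After the NCAPD3 values were seen, its neighbours were compared in the same way. For the 39 other genes between H2AFX and that end with a mean count of at least 100, the median log2 ratio of KO replicate 1 to the mean of the other KO libraries was -0.95 at D0 and -0.95 at D6, and 100% of them were below 0 at both days. NCAPD3 itself was at -0.92 and -0.96, and H2AFX at -1.21 and -1.59. The 490 genes of chromosome 11 before H2AFX had medians of -0.016 and -0.078, and the 8636 genes of other chromosomes 0.0011 and -0.00097. The lower NCAPD3 level of subclone 1 was thus shared by the genes next to it on the distal long arm. The number of copies of this stretch was not measured here, and its part was not tested.

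**Figure D5:**
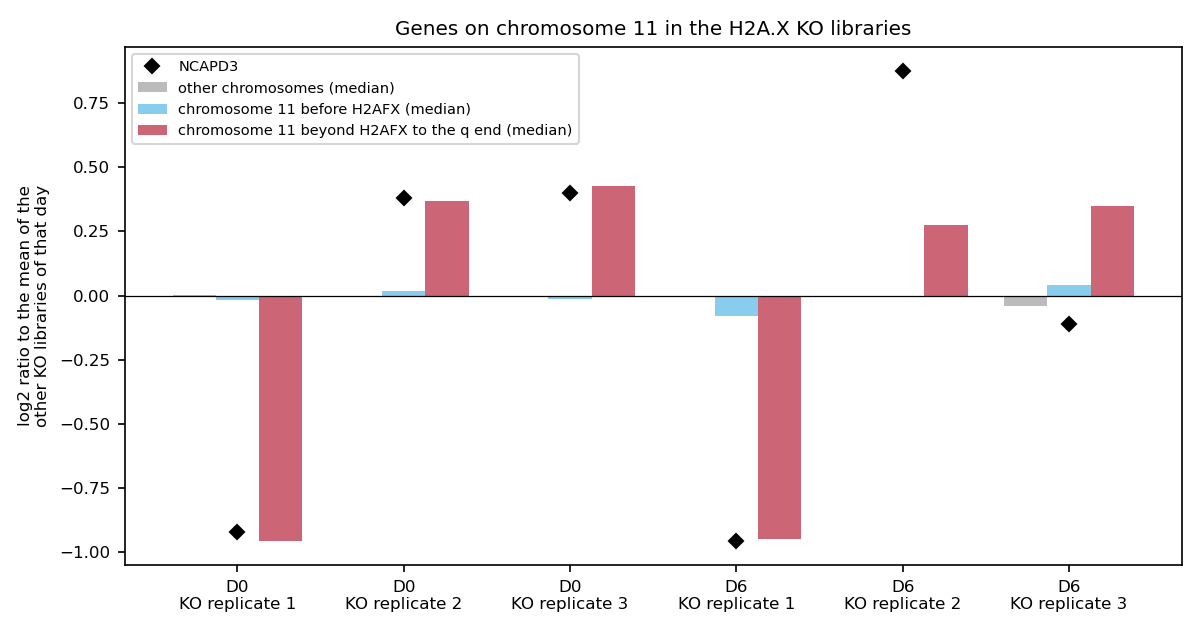
Log2 ratio of each H2A.X KO library to the mean of the other KO libraries of its day. Bars are medians over genes of other chromosomes, of chromosome 11 before H2AFX and of chromosome 11 beyond H2AFX, and diamonds are NCAPD3; replicate 1 stands at about -0.95 for the genes beyond H2AFX at both days.

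A wider list held 29 further genes of these complexes, their loaders and regulators and SMC5/6, of which the H2A.X experiment tested 28 and the BAZ1B experiment 27. In H2A.X KO, 10 were higher and 5 lower at D0, where all genes gave 18.4% and 16.7%, and 16 were higher and 5 lower at D6, where all genes gave 22.2% and 20.9%. With the offset for length and GC content these became 2 higher and 2 lower at D0, where all genes gave 7.98% and 13.9%, and 4 higher and 1 lower at D6, where all genes gave 9.01% and 11.7%. The genes named next for H2A.X KO, and their values, come from the fit without the offset, in which differences climbed with transcript length. Which of them passed with the offset is not given here. PDS5B, which binds cohesin and regulates its release, was higher at D0 by 1.04 ± 0.19 (adjusted p = 0.00692), as was SGO2, a protector of centromeric cohesin, by 0.998 ± 0.195 (adjusted p = 0.00785). NCAPH2, the kleisin of condensin II, was lower by -0.92 ± 0.16 (adjusted p = 0.00618), as was NSMCE4A of SMC5/6 by -0.87 ± 0.21 (adjusted p = 0.0128). At D6 the lowest adjusted p among higher genes were those of STAG1, the alternative to STAG2, at 1.24 ± 0.19 (adjusted p = 0.00356), and of WAPL, the cohesin release factor, at 1.17 ± 0.19 (adjusted p = 0.0037). Lower were NSMCE1 by -1.21 ± 0.26 (adjusted p = 0.006) and PTTG1, the securin that holds separase in check, by -1.51 ± 0.33 (adjusted p = 0.00668).

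In BAZ1B KO, 1 gene of the wider list was higher at D0, MCPH1, an inhibitor of condensin II (0.24 ± 0.05, adjusted p = 0.0113), and 1 was lower at D6, SMC5 (-0.16 ± 0.04, adjusted p = 0.0122). All genes gave 1.25% higher and 2.64% lower at D0, and 6.87% and 5.97% at D6. With maturation 17 rose and 3 fell in WT, where all genes gave 33.5% and 35.4%, and 17 rose and 4 fell in KO, where all genes gave 33.2% and 34.5%. The smallest adjusted p among those that rose were those of SMC1B, a meiotic form of SMC1, at 1.14 ± 0.06 in WT and 1.13 ± 0.06 in KO, and of STAG3, a meiotic form of the STAG subunits, at 0.84 ± 0.04 and 0.78 ± 0.04. ESCO1, an acetyltransferase of SMC3, fell in both genotypes, by -0.46 ± 0.06 in WT and -0.28 ± 0.06 in KO. PDS5B fell in WT by -0.16 ± 0.05 and MCPH1 in KO by -0.21 ± 0.05. In the H2A.X experiment, against 0.839% of all genes in WT and 14.8% in KO, 2 rose in WT, SMC1B at 0.93 ± 0.19 (adjusted p = 0.0425) and the meiotic kleisin REC8 at 0.92 ± 0.20 (adjusted p = 0.0463), and 8 rose in KO, again with REC8 (1.47 ± 0.16, adjusted p = 0.000261) and SMC1B (0.87 ± 0.16, adjusted p = 0.00264) at the smallest adjusted p.

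Among 9231 genes tested in both experiments with a mean count of at least 100, those whose log2 levels over the 10 and the 12 libraries were most like the mean standardized profile of the 6 condensin genes were ANLN, MORC3, ANKRD12, PAN3 and REV1, with the smaller of both Pearson correlations between 0.973 and 0.984. For the mean of the 4 cohesin genes they were TXNDC16, TULP3, SP3, CUL5 and MMS22L, with values between 0.977 and 0.985. Genotype, day and library are shared by all points of these correlations.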

How the data were processed

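Counts per gene were deposited by the authors as 2 tables of raw read counts, 1 per experiment, each with 59087 gene names. Per the labels and the study's methods, polyadenylated RNA was sequenced in single-end reads, aligned to hg38 with STAR (2.7.0f in the processing notes) and counted with featureCounts of Subread 1.6.4. The labels and the methods name different TruSeq kits, so strand use is not settled here. The deposited counts were tested with edgeR 4.0.16 in R 4.3.3 (TMM, filterByExpr with a minimum count of 10 and a total of 15, quasi-likelihood test, 1 coefficient per genotype and day, each experiment alone, two-sided, Benjamini-Hochberg adjusted p below 0.05). The H2A.X experiment had 13236 tested genes and the BAZ1B experiment 13879, and the steps were tested on simulated data with 200 changed genes. For H2A.X KO against WT at D0, 1% of simulated 1.5-fold changes and 22% of 2-fold changes were called. For BAZ1B KO against WT at D0 these were 84% and 97%. In the data, 2434 genes were called higher and 2217 lower in H2A.X KO at D0, far more than the 200 changed in the simulation. The adjusted threshold was therefore stricter in the simulation, and its shares do not give the rate of missed changes in the data. DESeq2 1.42.0 was an alternative. Transcript lengths and GC content came from GENCODE 44, matched by name for 36434 names and by an older name for 759. The offset used splines with 5 degrees of freedom. Levels per kilobase are CPM of the effective library divided by transcript length. Promoter windows came from RefSeq.

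Genes of the wider list were named by the smallest adjusted p, up to 2 in each direction per comparison. The members and lists were chosen with earlier results of these data known. Replicate numbers were taken to mark subclones, since the sample titles name only replicates. Over genes, deviations from the group means of same-numbered D0 and D6 libraries correlated at 0.306 to 0.606 in the 3 H2A.X KO pairs and 0.161 to 0.659 in the 3 BAZ1B KO pairs, so these were treated as pairs. The correlation was 0.491 in H2A.X-experiment WT, where groups of 2 libraries make both pairs give the same value. It was 0.0125 to 0.183 in BAZ1B-experiment WT, so the pairing was weak there. WT and KO libraries sharing a number come from different subclones, so the replicate block in KO against WT joins unrelated libraries. For D6 against D0 the replicate block was the subclone. Other alternatives were upper-quartile scaling, no filter, globin genes left out, each day alone, a replicate block, a stricter threshold and each library left out. The likeness of genes and the neighbours of H2AFX were described without a test.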

Additional observations from a re-analysis of the deposited data

Results flagged for a closer look

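RAD21 in the H2A.X experiment stood out because its subclones moved in opposite directions by genotype. From D0 to D6 the log2 change was -0.12 and -0.14 in the 2 WT subclones and 0.26, 0.60 and 0.065 in the 3 KO subclones. The difference between the genotypes was 0.45 ± 0.24 (SE), and it did not pass edgeR's test of the interaction (adjusted p = 0.412). With the offset for length and GC content, the change in WT became 0.033, so the opposite directions depended on the normalization. How many of all genes moved in opposite directions was not counted. Groups of 2 or 3 libraries were too small to be searched for single libraries that stand apart.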

How the results depend on the processing

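Directions and calls of the 10 genes were recomputed under each alternative, and the cause of a change was not tested. D6 against D0 in the BAZ1B experiment kept its count of 9 in both genotypes under every alternative except the stricter threshold and, in KO, without KO replicate 1 at D0 (10). Below, 'day effect' is D6 against D0, a number of genes counts those called, and other values are log2 changes of genes whose sign was reversed. Of the reversed genes only SMC1A in H2A.X KO at D0 had passed the test. With a threshold of 0.001 on the adjusted p and 1.5 on the size of the log2 change, 0 of the 10 genes were called in any comparison. By DESeq2, H2A.X day effect in WT gave SMC3 at -0.0042 and NCAPH at -0.016 and BAZ1B KO at D6 gave 1 gene, while H2A.X KO gave 5 genes at D0 and 9 at D6 and its day effect 5. With no filter on low counts, H2A.X day effect in WT gave SMC3 at -0.022 and NCAPH at -0.036, H2A.X interaction gave 1 gene, BAZ1B KO at D0 gave NCAPD3 at -0.00045 and BAZ1B KO at D6 gave SMC1A at 0.0034 and SMC3 at 0.0019, while H2A.X KO gave 6 genes at D0 and 8 at D6 and its day effect 5. With each day alone, H2A.X KO at D0 gave 5 genes. With the length and GC offset, H2A.X KO at D0 gave 2 genes, SMC1A at -0.077, SMC3 at -0.23, NCAPD3 at -0.18 and NCAPH at -0.56, H2A.X KO at D6 gave 3 genes, NCAPG at -0.33 and NCAPH at -0.24, H2A.X day effect in WT gave SMC1A at 0.087, NCAPD3 at 0.031 and RAD21 at 0.033, H2A.X day effect in KO gave 7 genes, BAZ1B KO at D0 gave SMC1A at 0.010, SMC3 at 0.026 and STAG2 at 0.021 and BAZ1B KO at D6 gave SMC1A at 0.028, SMC3 at 0.043, SMC4 at 0.028, NCAPD2 at 0.025, NCAPD3 at 0.0055 and RAD21 at 0.014. With the replicate block with length and GC offset, H2A.X KO at D0 gave 2 genes, SMC1A at -0.058, SMC3 at -0.22, NCAPD3 at -0.40 and NCAPH at -0.58, H2A.X KO at D6 gave 5 genes in place of 7, without SMC3 and SMC4, NCAPD3 at -0.084, NCAPG at -0.30 and NCAPH at -0.26, H2A.X day effect in WT gave 1 gene, SMC1A at 0.088, NCAPD3 at 0.031 and RAD21 at 0.033, H2A.X day effect in KO gave 10 genes, BAZ1B KO at D0 gave SMC1A at 0.010, SMC3 at 0.026 and STAG2 at 0.021, BAZ1B KO at D6 gave SMC1A at 0.028, SMC3 at 0.043, SMC4 at 0.028, NCAPD2 at 0.025, NCAPD3 at 0.0057 and RAD21 at 0.014 and BAZ1B day effect in KO gave RAD21 at 0.0013. With upper-quartile normalization, BAZ1B KO at D6 gave 2 genes and NCAPH at -0.017 and BAZ1B interaction gave SMC3 at -0.026. With the replicate block alone, the KO day effect of the H2A.X experiment gave 6 genes in place of 4. H2A.X KO at D0 gave 6 in place of 4, with SMC2 (0.91, adjusted p = 0.0263) and SMC3 (0.46, adjusted p = 0.0401) added, and no other count of calls changed. In KO against WT this block joins libraries of different subclones by number alone, with or without the offset. The calls it added or removed there carry no weight. Upper-quartile scaling shifted the median of all genes by -0.11 for H2A.X KO at D6.

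Leaving out libraries, 1 at a time or both of H2A.X KO subclone 1 (an alternative chosen after seeing the data), gave these ranges. For BAZ1B KO at D6 it gave NCAPD2 from -0.040 to 1.6e-05, NCAPH from -0.037 to 0.054, SMC1A from -0.043 to 0.026, SMC3 from -0.030 to 0.023, SMC4 from -0.068 to 0.0057 and 0 to 1 genes. For H2A.X day effect in WT it gave NCAPD2 from -0.17 to 0.58, NCAPD3 from -0.40 to 0.086, NCAPH from -0.17 to 0.19, SMC1A from -0.37 to 0.26, SMC2 from -0.17 to 0.34, SMC3 from -0.16 to 0.18, SMC4 from -0.092 to 0.34 and STAG2 from -0.12 to 0.36. For H2A.X interaction it gave NCAPD2 from -0.26 to 0.50, NCAPD3 from -0.049 to 0.56 and 0 to 2 genes. For BAZ1B KO at D0 it gave NCAPD3 from -0.017 to 0.0098, NCAPH from -0.0049 to 0.050, SMC2 from -0.015 to 0.10, SMC3 from -0.031 to 0.016, STAG2 from -0.046 to 0.023 and 0 to 1 genes. For H2A.X day effect in KO it gave NCAPD3 from -0.21 to 0.40 and 1 to 8 genes. For BAZ1B interaction it gave NCAPH from -0.057 to 0.034, SMC3 from -0.023 to 0.033 and 0 to 1 genes. For H2A.X KO at D0 it gave NCAPH from -0.074 to 0.28 and 0 to 5 genes. For BAZ1B day effect in KO it gave RAD21 from -0.18 to 0.013. For H2A.X KO at D6 it gave 0 to 9 genes. Groups of 2 or 3 subclones limit the precision, most of all for H2A.X-experiment WT, where a group left with 1 library was assumed to vary like the others.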
